A study of Mus musculus with 34 samples.

Results

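The comparison was between RNA-seq libraries with long and with short fragments, made by poly(A) selection from the same mouse liver RNA. It rested on 6 of the 34 libraries of the series: 3 with long and 3 with short fragments, 1 of each at a slow, a medium and a fast ramp rate (how quickly the thermocycler changes temperature during PCR). Members were taken by their labels, and long and short libraries were matched by ramp rate. The 3 polyA libraries with medium fragments shared the estimate of the spread and took no part in the contrast. Per the labels, the RNA came from the liver of 1 wild-type C57BL/6J mouse of 12 weeks, and all 9 polyA libraries belonged to batch 1. They were made from 200 ng of RNA with the TruSeq Stranded mRNA kit, carried adapters with unique molecular identifiers and were amplified for 13 PCR cycles. The labels gave fragment length as a word only, with no size in bases. All libraries were technical preparations of 1 RNA sample, with 1 library per fragment length and ramp rate. The p-values therefore rested on how the length effect varied between ramp rates, mixed with preparation noise, and not on a spread between animals.

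Poly(A) selection captures messenger RNA by its tail, and the captured RNA is then broken, copied into cDNA, ligated to adapters and amplified. A transcript can only give a fragment that fits inside it, so the chosen fragment length sets which pieces of short messages can be read. Strands rich in G and C melt at a higher temperature than strands rich in A and T, and the share of G and C in a molecule (its GC content) is known to affect how efficiently it is copied and amplified. In the liver, most messenger RNA encodes secreted plasma proteins and the enzymes of intermediary metabolism, and these genes cover a wide range of GC content.

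The short libraries held 33.9, 24.99 and 34.95 M counts (M, counts in units of 1e+06) at slow, medium and fast ramp, and the long libraries 23.5, 30.01 and 26.3 M. The 10 hepatocyte markers held 10.3 to 10.7% of the counts in the short and 10.1 to 10.4% in the long libraries. None of the cardiomyocyte markers, which would mark the heart tissue also used in the series, passed the filter on low counts. The labels disagreed on the sex of the mouse. Xist, which is transcribed from the inactive X chromosome, was at 0.0581 to 0.157 CPM (counts per 1e+06 counts of a library) over the polyA libraries, and the Y-linked gene Ddx3y was at 40.5 to 74.8 CPM. The Y-linked genes Eif2s3y, Kdm5d and Uty were at 31.3 to 65.1, 19.4 to 24.8 and 4.94 to 12.9 CPM. These values are those of male RNA.

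In the main fit, long and short fragments gave different levels for a majority of the measured liver genes, mostly by small amounts. Of 14342 genes tested, 8076 (56.3%) differed at an adjusted p under 0.05 by edgeR's quasi-likelihood test. In long libraries 3966 genes (27.7%) were higher and 4110 (28.7%) were lower. The called genes were not a majority in some other settings, such as DESeq2 (6058 of 14342) or without the short library at fast ramp (6964 of 14457). Fold changes are given as log2 of long over short, so a value of 1 is a doubling in long libraries. The middle 50% of all tested genes lay between -0.26 and 0.27. With a test that required at least a 1.5-fold change (edgeR's glmTreat), 519 genes (3.62%) remained, 383 of them higher (2.67%) and 136 lower (0.948%) in long libraries. Of the 8076 genes, 7579 (93.8%) had long and short libraries that did not overlap, against 59.3% of all tested genes. The genes were called on these same libraries, so the higher share largely restates the call. In multidimensional scaling of the 9 polyA libraries, the first dimension carried 52.6% of the variation, and on it the long libraries lay between 1.41 and 1.62, the medium ones between -0.56 and -0.42 and the short ones between -1.07 and -0.99.

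The shifts followed the GC content of the transcript. Across the 14302 tested genes with an annotated transcript, Spearman's rank correlation between the log2 fold change and the GC of the longest transcript was -0.793. In the pairs at slow, medium and fast ramp taken singly, the rank correlation was -0.668, -0.707 and -0.767. Genes are not independent replicates and share their libraries, so these values are descriptions without a test. Genes with under 36% GC had a median log2 fold change of 1.04, and 53 of these 59 genes were called higher and 0 lower. From 40 to 42% GC the median was 0.52, with 679 of 830 genes higher and 6 lower. The balance was near 48 to 50% GC, where the median was 0.01 and 225 genes were higher and 193 lower of 1583. From 56 to 58% GC the median was -0.32, with 24 of 1185 genes higher and 792 lower, and from 60 to 62% GC it was -0.46, with 2 of 381 higher and 277 lower. At the top of the range, the 43 genes of 64 to 66% GC had a median of -0.57 and the 30 genes above that -0.55. The mean level of a gene had almost no rank relation with its fold change (rank correlation 0.017, 14342 genes).

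**Figure D1:**
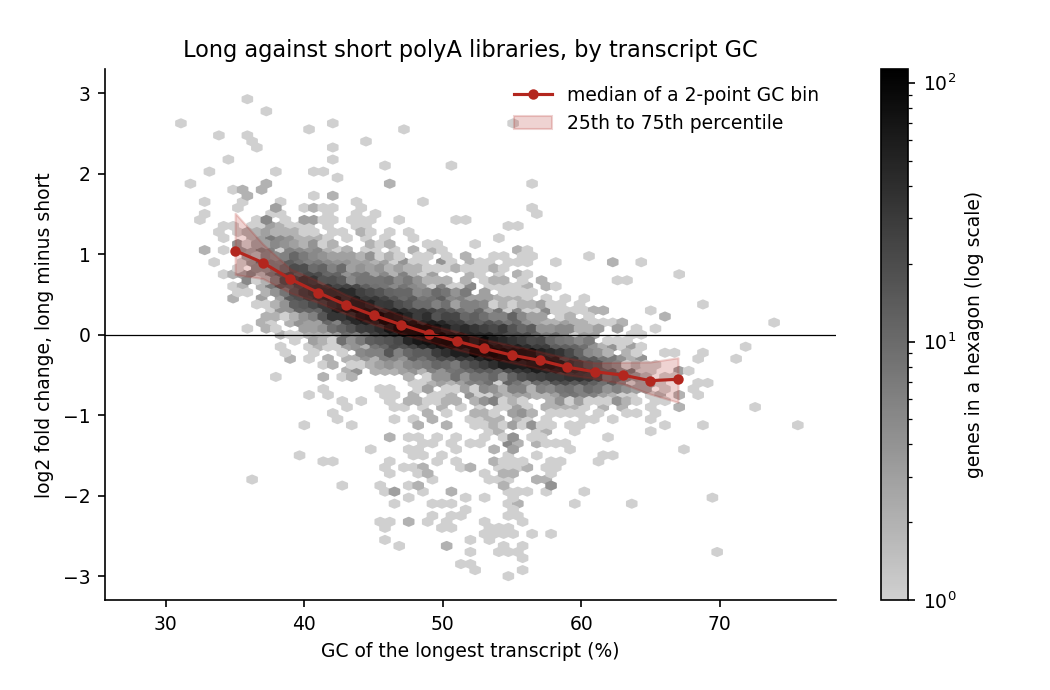
Log2 fold change of long against short polyA libraries (vertical axis) against the GC of each gene's longest transcript (horizontal axis, percent), with the number of genes as grey hexagons and the median and quartiles of each 2-point GC bin in red. The medians fall from 1.04 under 36% GC to -0.57 at 64 to 66%, and 72 genes beyond a log2 value of 3 in either direction are not drawn.

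Among 12952 coding genes with an annotated 3′ UTR, the rank correlation was -0.831 for the whole transcript, -0.729 for the coding part alone and -0.700 for the 3′ UTR alone, so the relation was present in both parts of the message. Transcript length had a much weaker rank relation. The rank correlation with length was 0.123, and it was -0.077 with GC held by ranks, while the rank correlation with GC was -0.791 with length held by ranks. Over the 12952 coding genes, it was 0.248 for the length of the 3′ UTR and -0.096 for that of the coding part, without GC held. Length and GC were themselves related, at a rank correlation of -0.213. Messages of 8000 to 12000 bases had a median log2 fold change of 0.13 (573 genes), those of 12000 bases and over 0.12 (139 genes), and those of 1500 to 2000 bases -0.10.

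The sequences below show what low and high GC look like in genes with large shifts in either direction. Other genes moved further, many of them with near-identical copies. The middle 120 coding bases of 4 messages are printed, with G and C in capitals, from GENCODE M21 transcripts on GRCm38, at the genomic span they cover including any intron. Rpl22l1, on chr3:28806758-28807205 of the plus strand, encodes a ribosomal protein related to Rpl22, and mt-Nd3, on chrM:9571-9690 of the plus strand, encodes a complex I subunit. Jund, on chr8:70699509-70699628 of the plus strand, encodes a transcription factor of the AP-1 family, and Rnf126, on chr10:79761483-79762118 of the minus strand, encodes a ubiquitin ligase.
Rpl22l1: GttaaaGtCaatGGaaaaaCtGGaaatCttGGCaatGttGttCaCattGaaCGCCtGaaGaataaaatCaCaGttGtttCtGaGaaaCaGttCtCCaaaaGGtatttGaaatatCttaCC
mt-Nd3: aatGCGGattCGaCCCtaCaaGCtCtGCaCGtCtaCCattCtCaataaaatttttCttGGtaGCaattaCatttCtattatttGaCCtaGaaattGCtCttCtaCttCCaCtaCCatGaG
Jund: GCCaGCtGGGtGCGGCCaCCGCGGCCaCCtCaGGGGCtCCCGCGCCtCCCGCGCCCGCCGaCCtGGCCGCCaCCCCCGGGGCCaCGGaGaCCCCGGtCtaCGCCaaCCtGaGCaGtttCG
Rnf126: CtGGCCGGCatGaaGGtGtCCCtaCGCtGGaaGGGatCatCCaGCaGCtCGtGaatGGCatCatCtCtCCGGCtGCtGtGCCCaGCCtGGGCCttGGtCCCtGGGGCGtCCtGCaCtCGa
G and C made up 34.2% of the Rpl22l1 stretch, 37.5% of that of mt-Nd3, 78.3% of that of Jund and 64.2% of that of Rnf126. Over the whole coding parts of 366, 345, 1023 and 939 bases the shares were 39.9, 33.3, 70.7 and 62.1%.

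Rpl22l1 was at 16.5, 16.97 and 14.9 normalised CPM in the short libraries (slow, medium and fast ramp, the order used throughout) and at 75.9, 60.01 and 61.9 in the long ones. Every long library was above 3 times the highest short one, and the log2 fold change was 2.04 (SE 0.062, edgeR adjusted p 2.21e-09). mt-Nd3 was at 165, 172 and 132 normalised CPM in short and 302, 795 and 868 in long libraries, with a log2 fold change of 2.03 (SE 0.30, edgeR adjusted p 0.000131). Its long library at slow ramp stood well below the other long ones, yet above all short ones. At the other end, Rnf126 was at 17.7, 22.8 and 19.4 normalised CPM in short and 11.3, 11.9 and 8.71 in long libraries, with a log2 fold change of -0.91 (SE 0.078, edgeR adjusted p 2.21e-06). Jund was at 28.7, 35.16 and 24.6 in short and 19.4, 20.5 and 9.15 in long libraries, with a log2 fold change of -0.88 (SE 0.12, edgeR adjusted p 5.44e-05). In neither gene did the groups overlap. Among protein-coding genes, 331 rose and 31 fell at 1.5-fold. Ube2v2, a cofactor of ubiquitin conjugation with 35.1% GC, rose by 1.55. Ypel3 (59.8% GC) and Vegfb, a vascular growth factor gene with 62.6% GC, had log2 fold changes of -0.82 each.

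**Figure D2:**
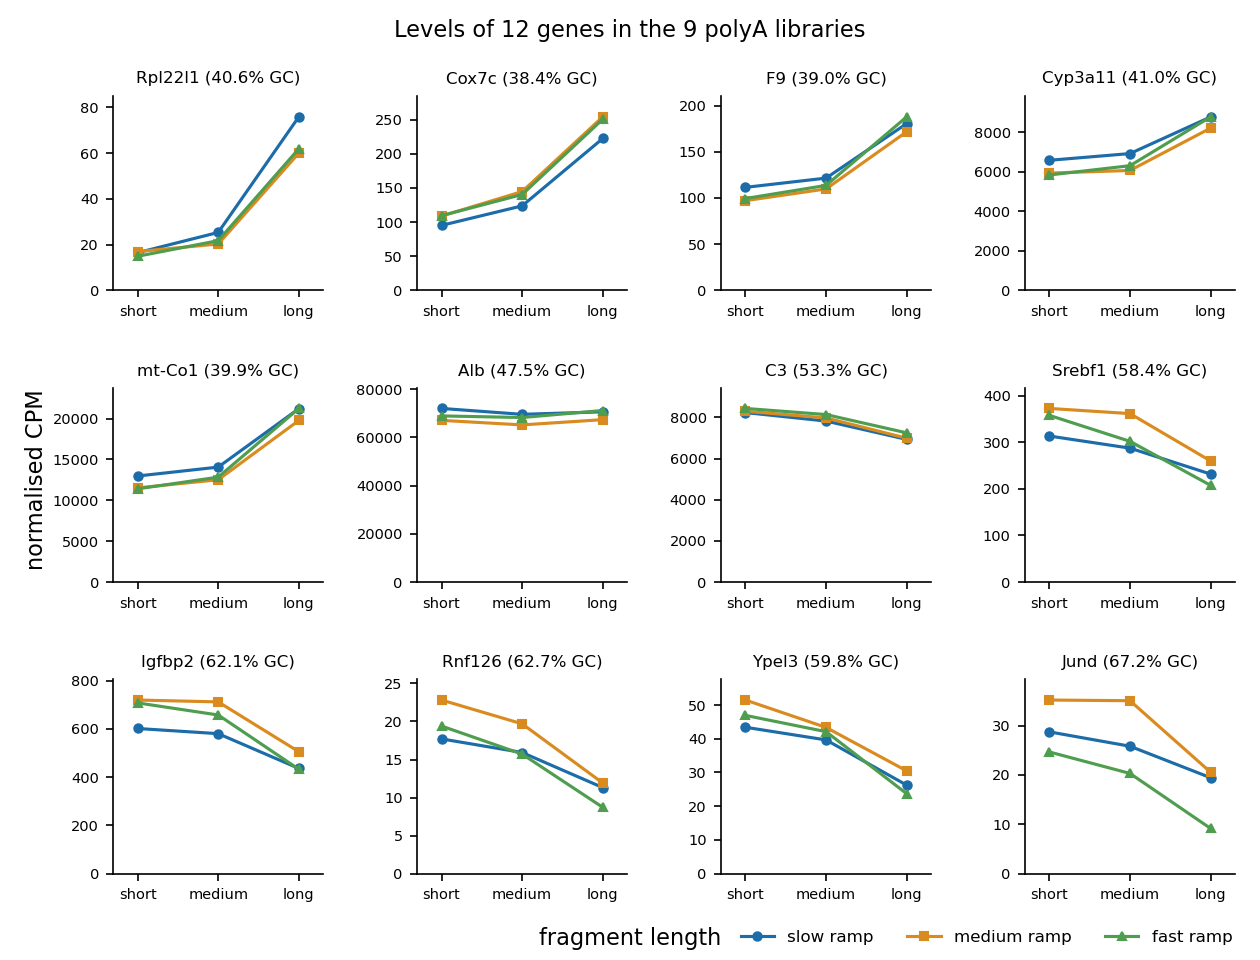
Normalised CPM (vertical axes, each from 0) of 12 genes in the 9 polyA libraries, by fragment length (horizontal axis) and ramp rate (colour and marker), with the GC of the longest transcript in each title. Genes under 42% GC rise to the long libraries, Alb at 47.5% GC differs by 0.01 on the log2 scale, and genes above 53% GC fall, with most of each change between medium and long.

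Short messages departed from the GC pattern in one respect. Among coding genes of at least 10 normalised CPM, those under 750 bases stood above longer ones of like GC. Under 44% GC, the median log2 fold change was 1.28 for 16 genes under 750 bases, 0.67 for 68 genes of 750 to 1500 bases and 0.45 for 631 genes of 3000 to 6000 bases. At 56% GC and over, the medians for the same lengths were -0.09 (44 genes), -0.31 (230 genes) and -0.41 (415 genes). Over all gene types of any level, those under 750 bases stood above those of 750 to 1500 bases under 44% GC (medians of 0.73 and 0.63), at 52 to 56% (-0.11 and -0.16) and at 56% and over (-0.21 and -0.34). They did not at 44 to 48% GC (0.23 and 0.25) or at 48 to 52% (0.025 and 0.042). Without matching on GC, the 235 tested genes under 500 bases had a median of -0.25, with 56 of them lower at 1.5-fold, and the 402 genes of 500 to 750 bases had a median of 0.05. Over all lengths, 94 of the 136 genes lower at 1.5-fold were processed pseudogenes and 31 were protein coding. Counts can pass between pseudogenes and near-identical coding genes. How far this weighs on the medians of short genes was not tested.

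**Figure D3:**
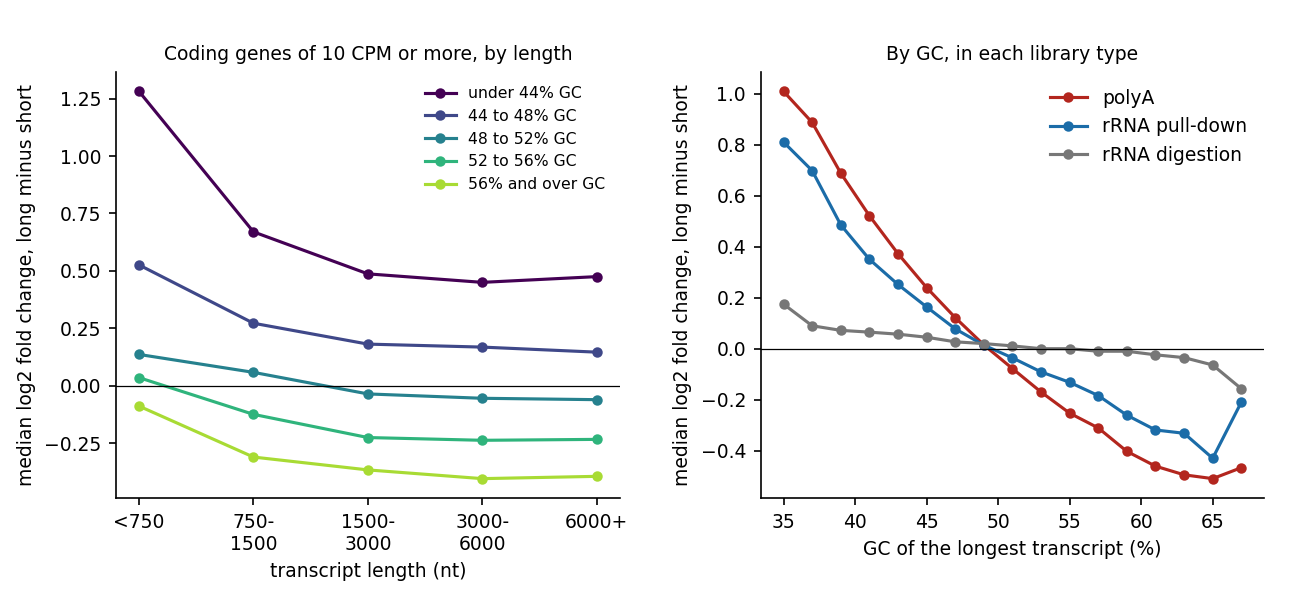
Left, median log2 fold change of long against short polyA libraries for coding genes of at least 10 normalised CPM, by transcript length (horizontal axis, bases) in 5 classes of GC; right, median log2 fold change by GC of the longest transcript (percent) in polyA, rRNA pull-down and rRNA digestion libraries. In each GC class the shortest messages have the highest median, and the slope with GC is steepest in polyA and shallowest in digestion libraries. Fragment sizes in bases were not given and may differ between library types.

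The shift was also visible in the make-up of each library. Genes under 40% GC took 5.80, 5.398 and 5.11% of the counts in short and 9.08, 8.61 and 9.04% in long libraries, a mean difference of 3.48 points. Genes of 50 to 60% GC took 45.5, 47.8 and 47.8% in short and 39.81, 41.29 and 39.75% in long libraries, a mean difference of -6.76 points. Neither set of values overlapped between the groups. The mean GC of a counted transcript was 1.08 points lower in long libraries (SD 0.19 over the 3 pairs), and 0.88 points lower with the mitochondrially encoded genes left out. The mean length of a counted transcript was 2848 ± 8.19 bases in long and 2871 ± 9.85 in short libraries (SD, n = 3 each), and without the mitochondrially encoded genes the mean difference was 11 bases longer in long libraries (SD 13.1, with pairs of -3, 23 and 13). With 3 pairs, an exact sign-flip test cannot give a p below 0.25, so none of these library measures was tested.

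**Figure D4:**
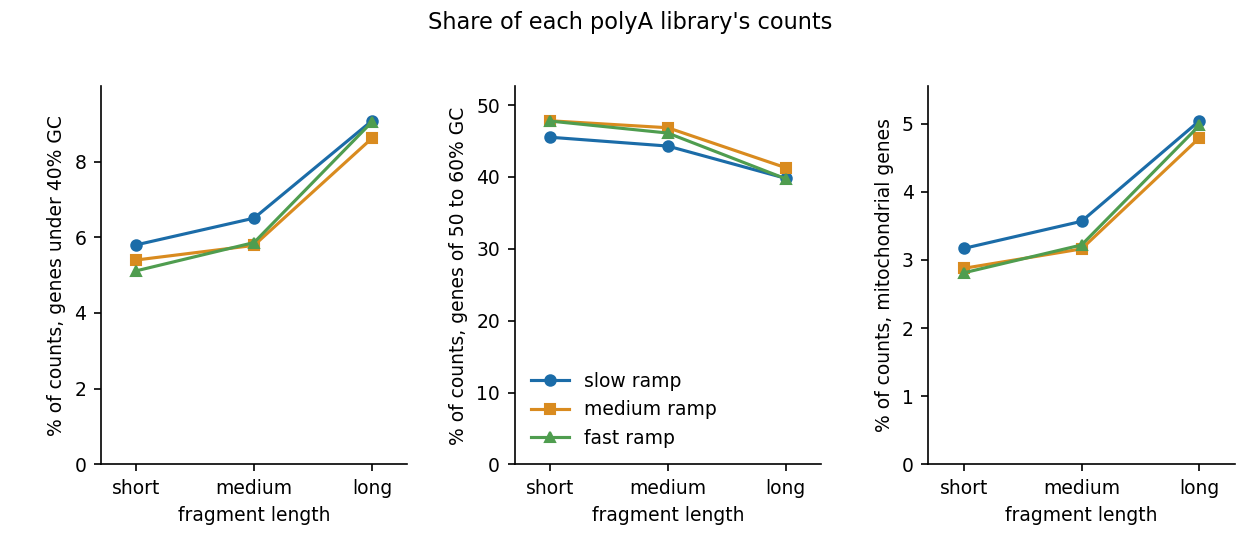
Percent of each polyA library's counts (vertical axes, from 0) in genes under 40% GC, genes of 50 to 60% GC and mitochondrially encoded genes, by fragment length and ramp rate. Long libraries stand apart from short ones at every ramp rate in all 3 panels, and the medium libraries lie nearer to the short ones.

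Functional groups of genes were then compared, and the counts of each list stand against the 27.7% of all tested genes that were higher and the 28.7% that were lower in long libraries. On library totals without TMM, the median of all tested genes moved from -0.016 to -0.067, and the list medians moved down by 0.05 with it. List medians within that distance of 0 thus depend on the scaling. Mitochondrially encoded messages, transcribed from the AT-rich mitochondrial chromosome, rose together in long libraries. They took 3.17, 2.88 and 2.81% of the counts in short and 5.04, 4.79 and 4.97% in long libraries, counting the mitochondrial rRNAs. Of the 13 mRNAs, 12 rose and 0 fell, with a median log2 fold change of 0.80 against -0.02 over all tested genes. The median of their 2-point GC bins over all tested genes was 0.895, and 7 of the 13 lay above the median of their own bin. mt-Co1, the most abundant, encodes the catalytic subunit of cytochrome c oxidase. It was at 12970, 11520 and 11400 normalised CPM in short and 21210, 19770 and 21240 in long libraries, a log2 fold change of 0.80 (SE 0.026, edgeR adjusted p 5.28e-09). mt-Nd6, the complex I subunit gene on the other strand, rose by 2.48 from a low level of 3.38 to 4.56 normalised CPM. mt-Nd1, mt-Nd2 and mt-Cytb rose by 0.92, 1.01 and 0.62. mt-Atp8 and mt-Atp6, which encode ATP synthase subunits and overlap each other on one message, cannot be separated for shared reads. Their sum was 614, 536 and 669 normalised CPM in short and 1947, 2189 and 2046 in long libraries. The exception was mt-Co3, at 1022, 722 and 867 in short and 849, 759 and 612 in long libraries (log2 fold change -0.23, edgeR adjusted p 0.0513). Its groups overlapped. The test passed the threshold in some other settings, with an adjusted p of 0.0258 on library totals, and without the long library at fast ramp the log2 fold change was -0.08. The mitochondrial rRNAs mt-Rnr1 and mt-Rnr2 rose by 1.00 and 1.15.

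Genes of the translation machinery, which are short messages, moved in both directions with more rises. Of 85 cytosolic ribosomal protein genes, 52 rose and 16 fell, with a median of 0.19. Their median GC was 51.6%, and the median of all tested genes in that GC bin was -0.08; 72 of the 85 lay above the median of their own GC bin. Rpl27, a large-subunit protein with 55.5% GC, rose from 40.5, 46.2 and 45.5 normalised CPM in short to 110, 122.8 and 101 in long libraries, a log2 fold change of 1.34 (SE 0.055, edgeR adjusted p 2.27e-08). Rpl4, the most abundant of the list by these counts, was at 509, 480 and 488 in short and 502, 480 and 508 in long libraries (log2 fold change 0.01, edgeR adjusted p 0.667). Many ribosomal protein genes have near-identical pseudogenes, so single values are uncertain, and the list median may hold counts passed from pseudogenes, which was not tested. Summed with its pseudogenes, Rpl10 had a mean log2 difference of 0.065 and Rps12 of -0.036. Rps27 summed with its retrogene had 0.48. Mitochondrial ribosomal protein genes were more even, with 21 higher and 28 lower of 78 (median -0.05). Mrpl12, the most abundant of them at 56.1% GC, fell by 0.45 on the log2 scale, and Mrps18c at 44.51% GC rose by 0.88.

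Nuclear-encoded genes of oxidative phosphorylation moved in both directions. Of 77 tested, 32 rose and 20 fell (median 0.07, and 0.015 on library totals), and 53 lay above the median of their GC bin. Cox7c, a small cytochrome c oxidase subunit with 38.4% GC, was at 95.1, 109 and 109 normalised CPM in short and 222, 254 and 251 in long libraries, a log2 fold change of 1.21 (SE 0.029, edgeR adjusted p 2.78e-10). Cox8a, another small subunit of the same enzyme with 58.6% GC, went the other way, from 158, 163 and 152 to 103, 104 and 79.0 (log2 fold change -0.73, SE 0.055, edgeR adjusted p 9.58e-07). Neither gene had overlapping groups. Atp5l, an ATP synthase subunit, rose by 1.07, and Atp5b, the catalytic beta subunit and most abundant member, fell by 0.22 on the log2 scale. Subunits of the same complex thus moved in opposite directions.

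Of the proteasome subunits, 13 rose and 11 fell of 38. Psma3 and Psmc6, at 40.8 and 36.97% GC, rose by 0.89 and 0.81. Of the spliceosomal Sm and LSm proteins, which bind small nuclear RNAs, 9 rose and 4 fell of 19. Lsm5 at 36.6% GC and Snrpe at 42% GC rose by 1.80 and 1.43.

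Genes of secreted liver proteins moved by small amounts, with more falls than rises. Of 46 plasma protein genes, 23 fell and 8 rose (median -0.06, and -0.11 on library totals), and the list held 20.8 to 21.4% of counts in short and 19.4 to 20.0% in long libraries. The median of their GC bins was -0.033, and 13 of the 46 lay above their own bin. Alb, which encodes albumin and has 47.5% GC, was at 69350 ± 2501 normalised CPM in short and 69720 ± 2052 in long libraries (SD, n = 3 each; log2 fold change 0.01, edgeR adjusted p 0.601). On library totals without TMM, its log2 fold change was -0.04 (edgeR adjusted p 0.00219). Trf, the gene of the iron carrier transferrin, fell by 0.12 on the log2 scale. Igfbp2, an insulin-like growth factor binding protein with 62.1% GC, was at 602, 720 and 708 in short and 436, 506 and 433 in long libraries, a log2 fold change of -0.56 (SE 0.040, edgeR adjusted p 7.12e-07). Igf1, a ligand it binds, has 37.96% GC and rose by 0.29. Serpina1e, which encodes an alpha-1-antitrypsin, fell by 0.18, and as a member of a cluster of near-identical genes its single value is uncertain. The apolipoproteins were even, with 7 higher and 7 lower of 19. Apob, the giant structural protein of very low density lipoprotein, rose by 0.43, and Apoe, the gene of an apolipoprotein that ligates the LDL receptor, fell by 0.15 with overlapping groups, a call that was lost without the ramp rate term (adjusted p 0.134). Without the long library at fast ramp its log2 fold change was -0.09, and without the short one at fast ramp it was -0.08.

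Complement and coagulation genes showed a similar split, with 14 higher and 20 lower of 44 (median -0.03, and -0.08 on library totals). C3, the central complement component, was at 8233, 8296 and 8434 normalised CPM in short and 6929, 6987 and 7247 in long libraries, a log2 fold change of -0.24 (SE 0.014, edgeR adjusted p 1.58e-07). F9, coagulation factor IX with 39.0% GC, was at 112, 97.1 and 99.4 in short and 181, 172 and 188 in long libraries, a log2 fold change of 0.81 (SE 0.040, edgeR adjusted p 5.96e-08). F2, prothrombin with 54.8% GC, was at 1783, 1822 and 1911 in short and 1439, 1521 and 1509 in long libraries (log2 fold change -0.30, SE 0.021, edgeR adjusted p 5.13e-07). Groups did not overlap for C3, F9 or F2, and the measured ratio of F9 to F2 was higher in every long library than in any short one.

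The major urinary protein (Mup) genes, which encode pheromone carriers made in the liver, had the highest list median. Of 22 tested, 19 rose and 3 fell, with a median of 1.37, at a median GC of 41.9% where all tested genes had a median of 0.52. These genes are near-identical copies and counts can pass between them, so only their sum is firm. The sum was 9800, 9041 and 8552 normalised CPM in short and 18870, 17080 and 19300 in long libraries, a mean log2 difference of 1.01 (SD 0.14, n = 3 pairs). Single members ranged widely. Mup18 was at 35.3, 48.8 and 55.4 in short and 1724, 1802 and 2304 in long libraries, Mup20 rose by 1.03 and Mup3 by 0.59, while Mup13 had a log2 fold change of -4.68 with overlapping groups, a call that was lost with DESeq2 (log2 fold change -2.49).

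Enzymes of drug and steroid metabolism moved in both directions. Of 71 cytochrome P450 genes, 26 rose and 21 fell (median -0.06), and 19 of the 71 lay above the median of their own GC bin. In the Cyp2c subfamily 11 of 13 rose and 0 fell, at a median GC of 42.4%, and in Cyp3a 4 of 6 rose and 1 fell, at 40.8%. In Cyp2d 0 rose and 6 of 7 fell, at 53.9% GC, and in Cyp4f 0 rose and 3 of 7 fell, at 53.1%. In Cyp2a 0 rose and 3 of 4 fell (median -0.15) at 49% GC, where all tested genes had a median of 0.01. In Cyp4a 2 rose and 1 fell of 6 at 46.7% GC, and in Cyp2j 2 of 3 rose at 42.8%. Cyp3a11, the most abundant and a main drug-oxidising enzyme, was at 6582, 5935 and 5840 normalised CPM in short and 8776, 8211 and 8781 in long libraries, a log2 fold change of 0.49 (SE 0.027, edgeR adjusted p 1.27e-07). Cyp7a1, the rate-limiting enzyme of bile acid synthesis with 39.7% GC, was at 67.3, 62.1 and 65.6 in short and 101, 95.9 and 105 in long libraries, a log2 fold change of 0.63 (SE 0.037, edgeR adjusted p 2.01e-07). Cyp2d26 was at 787, 845 and 853 in short and 675, 713 and 672 in long libraries, a log2 fold change of -0.27. P450 subfamilies hold close copies, so members of a subfamily can share reads. Of 56 phase II conjugation enzymes, 22 rose and 14 fell. Sult1d1, a sulfotransferase with 32.9% GC, rose by 1.05, and Gstm1, a glutathione transferase with 53.6% GC, fell by 0.23.

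In the lists of glucose and cholesterol metabolism, falls outnumbered rises. Of 32 glucose metabolism genes, 17 fell and 7 rose (median -0.118, against -0.126 for their GC bins), and 18 of the 32 lay above their own bin. Ugp2, which makes the glucose donor for glycogen and has 39.1% GC, rose from 247, 222 and 214 to 405, 380 and 404 normalised CPM, a log2 fold change of 0.80 (SE 0.037, edgeR adjusted p 4.15e-08). Of 35 cholesterol genes, 19 fell and 11 rose, and the rank correlation of fold change with GC within the list was -0.93. Srebf1, a transcription factor of lipid synthesis with 58.4% GC, was at 314, 373 and 358 normalised CPM in short and 232, 260 and 208 in long libraries, a log2 fold change of -0.58 (SE 0.054, edgeR adjusted p 4.25e-06). Idi1, an isomerase of the early pathway with 41.9% GC, rose by 0.65. In fatty acid oxidation and ketone synthesis 16 fell and 11 rose of 43, with a median of -0.01 close to that of all tested genes. The fatty acid carrier gene Cd36 rose by 0.70 and the peroxisomal thiolase gene Acaa1b fell by 0.45. In the urea cycle list 7 rose and 5 fell of 13, and Nags, which makes the allosteric activator of the cycle, fell by 0.51. Scd1, a fatty acid desaturase and one of the most abundant genes that rose, moved by only 0.17.

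**Figure D5:**
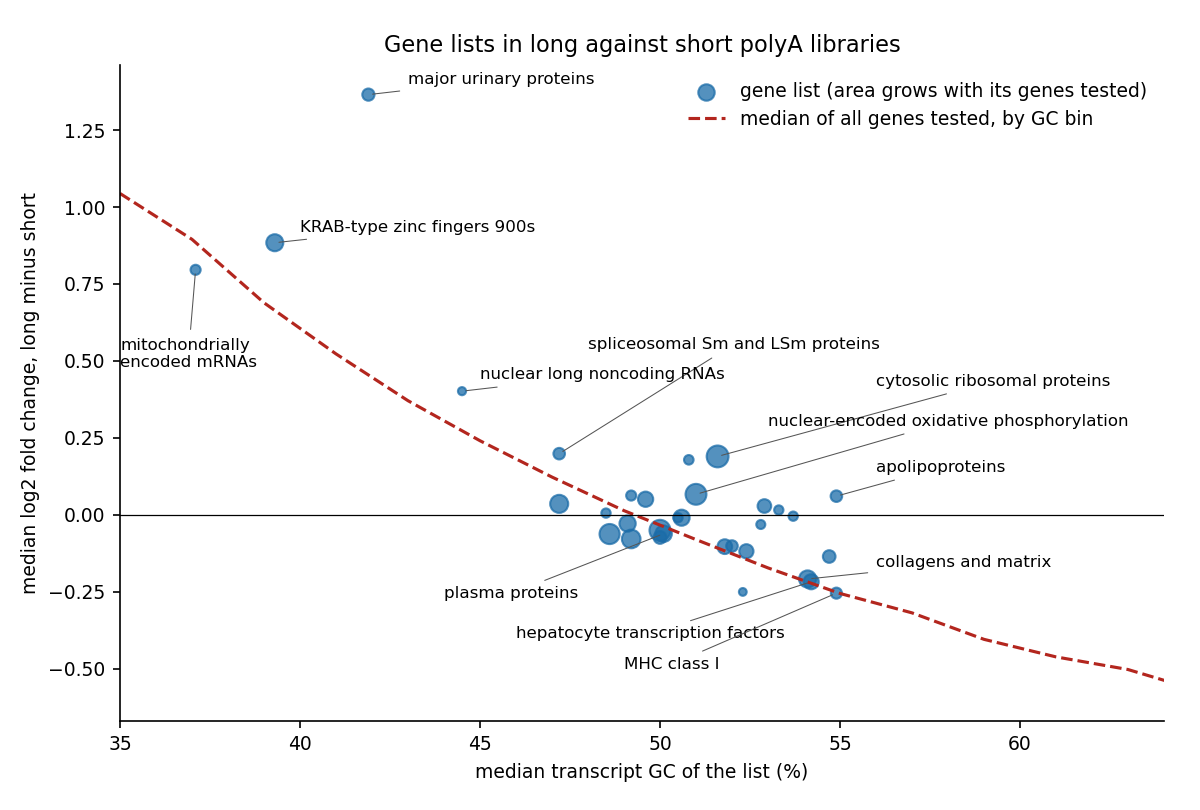
Median log2 fold change of long against short polyA libraries (vertical axis) against the median transcript GC (horizontal axis, percent) of each gene list, with the median of all tested genes by GC bin as a dashed line; point area grows with the number of genes tested. Lists of lower GC have higher medians, and some lists lie off the line, for example the major urinary proteins (1.37 against 0.52 in their GC bin) and the apolipoproteins (0.06 against -0.25).

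More hepatocyte transcription factor genes fell than rose. Of 37 hepatocyte transcription factors, 22 fell and 8 rose (median -0.22, median GC 54.2%), and their share of all counts in long libraries was 0.82 times that in short ones. The median of their GC bins was -0.255, and 17 of the 37 lay above the median of their own bin. Hnf4a, a master regulator of hepatocyte identity, was at 708 ± 15.5 normalised CPM in short and 606 ± 2.52 in long libraries (SD, n = 3 each; log2 fold change -0.23, edgeR adjusted p 1.06e-05). Onecut2, a factor with a message of 16234 bases and 42.6% GC, went the other way, from 49.3, 50.8 and 48.9 to 79.3, 74.5 and 74.2, a log2 fold change of 0.61. Of 24 immediate early genes, which respond within minutes to stimuli, 10 fell and 1 rose, Jund and Junb (-0.58) among those that fell; the call for Junb was lost without the ramp rate term in the fit. Of 19 circadian clock genes 9 fell and 6 rose: the repressor gene Per1 fell by 0.43, and the nuclear receptor genes Rora and Nr1d2 rose by 0.56 and 0.52.

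KRAB-type zinc finger genes rose in most cases. Of 49 tested KRAB-type zinc finger genes, chosen by symbol from Zfp900 to Zfp999, 40 rose and 1 fell, with a median of 0.88 at a median GC of 39.3%. They were expressed at low levels: the most abundant, Zfp970, was at 16.3 to 19.4 normalised CPM in short and 20.6 to 23.9 in long libraries and rose by 0.36. Zfp931 rose by 1.35 from 2.09, 1.31 and 1.33 to 4.25, 3.65 and 4.12 normalised CPM. These genes form clusters of close copies, so single values are uncertain. Over all 333 tested genes with a Zfp symbol, 150 rose and 52 fell, and 40 rose and 0 fell at 1.5-fold. Nuclear long noncoding RNAs also tended up, with 4 of 6 higher and 0 lower. Malat1, a nuclear speckle RNA, was at 129, 113 and 120 normalised CPM in short and 248, 198 and 206 in long libraries, a log2 fold change of 0.85 (SE 0.051, edgeR adjusted p 2.25e-07). Tug1 rose by 0.59 and Neat1, the scaffold of paraspeckles, by 0.21.

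Of all 139 tested genes with messages of 12000 bases and over, 54 rose and 23 fell. Genes for giant and cytoskeletal proteins moved in both directions. Of the 60 in that list, with a median transcript length of 12620 bases, 26 fell and 15 rose, and the rank correlation of fold change with GC within the list was -0.94. The list median was -0.078 against 0.014 for its GC bins, and 17 of the 60 lay above their own bin. Nbeal1, with 15731 bases and 37.2% GC, was at 10.4, 8.98 and 9.39 normalised CPM in short and 21.9, 21.8 and 22.5 in long libraries, a log2 fold change of 1.21 (SE 0.071, edgeR adjusted p 2.01e-07).

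Matrix and antigen presentation genes fell more often than they rose. Of 50 collagen and matrix genes, 19 fell and 2 rose (median -0.21, median GC 54.1%). The median of their GC bins was -0.213, and 27 of the 50 lay above their own bin. Col18a1, a basement membrane collagen with 60.8% GC, was at 1099, 1269 and 1276 normalised CPM in short and 873, 1006 and 862 in long libraries, a log2 fold change of -0.41. Fn1, fibronectin, fell by 0.25, whereas Dcn, the small proteoglycan decorin at 42.43% GC, rose by 0.34. Of 17 MHC class I pathway genes, 12 fell and 1 rose (median -0.254, against -0.255 for their GC bins), and 5 of the 17 lay above their own bin. H2-K1, a classical heavy chain with 56.3% GC, was at 896, 991 and 979 in short and 727, 802 and 729 in long libraries, a log2 fold change of -0.34 (SE 0.028, edgeR adjusted p 1.59e-06). B2m, the light chain that pairs with it, has 41.2% GC and rose from 1014, 993 and 966 to 1322, 1283 and 1356, a log2 fold change of 0.41 (SE 0.028, edgeR adjusted p 4.81e-07). Both had groups that did not overlap. The heavy chain genes are close copies, so single values among them are uncertain.

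Cell type markers gave calls in both directions in most lists. Kupffer cell markers had 2 higher and 4 lower of 10, sinusoidal endothelial markers 3 and 3 of 10, stellate and fibroblast markers 3 and 2 of 10, and bile duct markers 1 and 0 of 5. Blood cell markers had 5 higher and 2 lower of 11. Within a cell type the direction varied by gene: Stab1 (57.3% GC) fell by 0.34 and Mrc1 (43.4% GC) rose by 0.55 among endothelial genes, and Col1a1 (58.9% GC) fell by 0.58 and Rgs5 (41.1% GC) rose by 0.51 among stellate genes.

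Genes that share sequence gave the most extreme fold changes, and these are uncertain. The Rps27 coding sequence and that of its retrogene Rps27rt are 252 bases each with 0 differing bases (identity 100.0%), which is why the sequence is shown once, in lower case, for both genes. On GRCm38, Rps27 spans chr3:90212728-90213615 and Rps27rt chr9:114982456-114982707, both on the minus strand.
Rps27: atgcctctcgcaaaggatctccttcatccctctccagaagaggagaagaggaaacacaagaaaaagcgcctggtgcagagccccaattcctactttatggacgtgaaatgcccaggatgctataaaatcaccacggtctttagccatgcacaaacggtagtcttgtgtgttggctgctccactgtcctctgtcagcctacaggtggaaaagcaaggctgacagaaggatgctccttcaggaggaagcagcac
Rps27 was at 116, 114 and 119 normalised CPM in short and 125, 37.4 and 36.4 in long libraries. Rps27rt was at 49.3, 29.2 and 29.3 in short and 116, 158 and 167 in long libraries. The groups of Rps27 overlapped, since it was higher in the long library at slow ramp, while those of Rps27rt did not. The log2 fold changes were -0.97 (edgeR adjusted p 0.0120) for Rps27 and 2.06 (edgeR adjusted p 9.59e-05) for Rps27rt. The call for Rps27 was lost with DESeq2 (adjusted p 0.0566), without the ramp rate term (adjusted p 0.0664) and without the long or the short library at medium or at fast ramp (adjusted p 0.0566 to 0.0906). Without the long library at slow ramp its log2 fold change was -1.625. Their sum was 165, 143 and 149 in short and 240, 195 and 203 in long libraries, a mean log2 difference of 0.48 (SD 0.055, n = 3 pairs).

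Rpl10 and its pseudogene Rpl10-ps3 moved in opposite directions. Rpl10 was at 521, 514 and 501 normalised CPM in short and 179, 251 and 359 in long libraries, a log2 fold change of -1.04 that was -0.67 without the short library at slow ramp. Rpl10-ps3 had 0 counts in all short libraries and 369, 268 and 180 normalised CPM in long ones, at least 2805-fold higher against a floor of 3 counts per library. Over the 7 genes of Rpl10 and its pseudogenes, the sum was 512 ± 9.74 in short and 536 ± 14.9 in long libraries (SD, n = 3 each), a mean log2 difference of 0.07. Rps12-ps3 was at 54.5, 51.2 and 54.8 in short libraries and had 0 counts in long ones, at least 458-fold lower against the same floor, while the 19 genes of Rps12 and its pseudogenes summed to 161 ± 5.77 and 157 ± 12.2. Gene models that overlap on the same strand showed the same: the models of Chtf8 had log2 fold changes of -1.90 (ENSMUSG00000046691) and 8.08 (ENSMUSG00000117748), and their sum differed by -0.22. Fyb (-1.66) overlaps another gene on its strand, as does Hypk (-0.83) with Serf2, and the call for Hypk was lost without the long library at fast ramp, or the short library at slow or at fast ramp (log2 fold change -0.71, -0.77 and -0.40), with DESeq2 (adjusted p 0.0794) and without the ramp rate term (adjusted p 0.0761).

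Processed pseudogenes fell more often than they rose. Of 317 tested, 186 were lower and 23 higher in long libraries, with a median of -1.34, and 84 were over 4-fold lower. Protein-coding genes had 3699 higher and 3845 lower of 12953. Long intergenic noncoding RNA genes had 97 higher and 11 lower of 323 (median 0.21).

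Medium fragments gave intermediate values, nearer to short ones. Of the 8076 genes called, 7204 (89.2%) had a mean in medium libraries between the short and the long mean, against 68.7% of all tested genes. At the median the medium libraries lay 21.6% of the way from short to long on the log2 scale. The mitochondrially encoded share followed, at 3.57, 3.16 and 3.22% in medium libraries.

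The effect of fragment length was also compared with that in libraries depleted of rRNA by enzymatic digestion or by pull-down with probes. These were made from the same RNA in batch 2 with other kits, so method, kit and batch cannot be told apart. Fragment length was given as a word only, so long and short may stand for other sizes in each library type. By edgeR's test of the difference of effects at an adjusted p under 0.05, polyA and rRNA digestion libraries differed in 4979 of 15442 genes (32.2%), with the effect in polyA above that in digestion in 2361 (15.3%) and below it in 2618 (17%). PolyA and rRNA pull-down libraries differed in 380 genes (2.46%), with the effect in polyA above in 163 (1.06%) and below in 217 (1.41%). That count and its direction depended on 1 shallow library and on the scaling. Without the pull-down library with slow ramp and long fragments, which held 1.13 M counts, 1355 genes differed, 1016 above and 339 below in polyA, and on library totals 2457 differed, 2330 above and 127 below. In this joint fit, the rank correlation of the length effect with GC over 15372 genes was -0.747 for polyA, -0.577 for pull-down and -0.175 for digestion. The median effect for genes under 40% GC was 0.74, 0.57 and 0.08 in the same order, and at 60% GC and over it was -0.47, -0.32 and -0.03. In digestion libraries 878 genes were called for length (5.69%), of which 639 were higher (4.14%) and 239 lower (1.55%) in long libraries. In pull-down libraries 4944 were called (32%), 2830 higher (18.3%) and 2114 lower (13.7%), and without the shallow library 6428, with 3029 higher and 3399 lower. The Mup list had median effects of 1.35, 0.74 and 0.18 in polyA, pull-down and digestion, and the KRAB-type zinc fingers 0.92, 0.69 and 0.05. The mitochondrially encoded mRNAs were highest in pull-down, at 0.80, 0.98 and 0.27, and cytosolic ribosomal proteins had the lowest median in polyA, at 0.19, 0.32 and 0.27.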

How the data were processed

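Expected counts per gene, deposited by the authors in 1 table for all libraries, were used. The submitters' processing notes name Salmon 1.9.0, UMI-tools 1.1.1, R 4.4.0 and GRCm38. The transcript set, any bias correction and the handling of UMI duplicates were not given in the sources used here. Because Salmon assigns ambiguous reads by a probability model, the split of counts among near-identical genes is uncertain.

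Expected counts were rounded to whole numbers and tested with edgeR 4.0.16 (limma 3.58.1, R 4.3.3): filterByExpr, TMM normalisation, quasi-likelihood F-test with fragment length and ramp rate as terms over the 9 polyA libraries (residual df 4), and Benjamini-Hochberg adjustment over all genes tested at a threshold of 0.05. Normalised CPM are CPM of TMM-scaled totals. Standard errors were approximated from the F statistic. The effect of length was compared between methods in 1 fit of 27 selected liver libraries. DESeq2 1.42.0, other normalisations and filters and leaving out single libraries were the alternatives. The code was tested on simulated data. Total counts of 23.5 to 41.4 M per polyA library set the precision.

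Symbols, types, positions and transcripts came from GENCODE M21 on GRCm38, which matched 50896 of 51368 identifiers; the others held at most 0.0452% of counts. GC and length are those of each gene's longest transcript in the basic set. Named genes were the 10 protein-coding genes of at least 10 normalised CPM with the largest fold changes in each direction and the same direction at each ramp rate, the 5 most abundant called genes in each direction, and per list its most abundant member and the 2 with the largest change. B2m, Cebpb, Col18a1, Cox8a, Cyp2d26, Cyp7a1, F2, H2-D1, H2-K1, Igf1, mt-Atp6, mt-Atp8, mt-Co3, mt-Nd1, mt-Nd2, Mup20, Neat1, Per1, Rps27, Serf2, Tug1, Ube2v2, Zfp931 and the P450 subfamilies were chosen after their values were seen. Some results of this comparison are not reported here. Members, the 35 gene lists and tests were chosen with earlier results of these data known.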

Additional observations from a re-analysis of the deposited data

Results flagged for a closer look

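The length effect was tested for a difference between library types, in 1 fit over the 27 selected liver libraries, and 4979 genes differed between polyA and digestion libraries and 380 between polyA and pull-down libraries (edgeR, adjusted p under 0.05). The second count was 1355 without the pull-down library of 1.13 M counts and 2457 on library totals. Method, kit, batch and the fragment sizes behind each label cannot be told apart in these differences. They are given as the log2 effect in polyA minus that in the other type.

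Against digestion, the GC-poor Rpl22l1 and mt-Nd6 had effects higher by 1.413 and 2.16, and the GC-rich Rnf126, Ypel3 and Vegfb had effects lower by -0.926, -0.804 and -0.737. Among abundant genes the differences were 0.679 for mt-Co1, 0.352 for mt-Cytb, 0.254 for Scd1, -0.235 for Trf and -0.211 for Serpina1e. For genes that share sequence or overlap others, the differences were 2.044 for Mup7, 2.43 for Mup22, 2.161 for Mup16, 1.443 for Mup18, -1.167 for Rpl10, -1.46 for Ftl1-ps1, -1.226 for Fyb, and -1.809 and 7.494 for the Chtf8 models ENSMUSG00000046691 and ENSMUSG00000117748.

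Against pull-down, the differences were 1.206 for Mup7, 1.309 for Mup22, 4.333 for Rps27rt, -1.519 for Ftl1-ps1 and -1.069 for Fyb.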

How the results depend on the processing

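The number of genes called was 8076, against 6058 with DESeq2, 7431 without the ramp rate term, 7500 with the 6 long and short libraries alone, 7620 after thinning to the smallest total, and 6964 to 7787 when 1 library was left out. The share of calls that were higher in long libraries was 49.1%, and 42.1% on library totals. At 1.5-fold 519 genes passed, 362 with protein-coding genes alone (added after the data were seen), 360 to 600 with 1 library left out, and 109 at 2-fold. The rank correlation with GC was -0.875 for genes of at least 10 CPM, and -0.783 to -0.743 with 1 library left out. The rank correlation with length was 0.086 with the median over transcripts, and 0.113 to 0.134 with 1 library left out. PolyA and pull-down effects differed in 2457 genes on library totals and in 1355 without the pull-down library of low depth; polyA and digestion effects differed in 6331 when fitted alone. Without mitochondrially encoded genes the difference in mean GC was -0.877 points, that in mean length reversed to 11 bases, and that in the share of the 100 highest genes, 1.19 points with all genes, was 0.26; with the 10 highest genes it reversed to -0.0333. With 1 pair left out these ranged from -1.15 to -0.975 points, from -29.5 to -17 bases and from 0.87 to 1.365 points, and the mitochondrial share from 1.894 to 2.039 points. Clec4f, Alb and Rpl4 changed sign on library totals (-0.035, -0.043 and -0.037), where Alb was called lower (adjusted p 0.00219), and with 1 library left out Clec4f ranged from -0.023 to 0.056 and Alb from 0 to 0.023. The cause of these changes was not tested.

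Long and short libraries were paired by ramp rate, as a term of the fit. By replicate number, no paired analysis was possible because polyA libraries carry none (only unselected ones do). Replicates were preparations of 1 RNA, and genes of few counts and near-identical copies limit single values.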

Other observations

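Further lists of liver genes were not described in the comparisons. Of 25 endoplasmic reticulum chaperone genes, 8 were higher and 9 lower in long polyA libraries by edgeR at an adjusted p under 0.05, with a median log2 fold change of -0.07. Dnajb9, a chaperone partner induced by unfolded proteins with 40.6% GC, rose by 0.73, from 23.9, 20.5 and 18.3 normalised CPM in short to 36.9, 35.5 and 31.4 in long libraries (slow, medium and fast ramp). Syvn1, a ubiquitin ligase of protein disposal with 57.4% GC, fell by 0.54 on the log2 scale, from 74.3, 86.6 and 84.2 to 55.1, 59.5 and 54.2. P4hb, protein disulfide isomerase and the most abundant of the list, fell by 0.21. Of 29 genes for small peptides and metal-binding proteins, 10 were higher and 5 lower, with a median of 0.03 that turned to -0.02 on library totals, and Fabp1, the liver fatty acid binding protein, rose by 0.41, from 5084, 4657 and 4654 to 6499, 6131 and 6421 normalised CPM. Sumo2, a small ubiquitin-like modifier, rose by 0.63.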
